A study of Homo sapiens with 12 samples.

Results

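The genes described here are 48 genes of the endoplasmic reticulum (ER) that fold, modify and export secreted proteins or that report on unfolded protein there. They fell into 6 sensors and transducers, 12 chaperones and cochaperones, 8 disulfide and proline isomerases, 8 genes of ER-associated degradation (ERAD), 11 genes of translocation and signal peptide cleavage, and 3 genes of vesicle transport. Among the probe sets paired with its symbol alone, each gene was represented by the one whose mean over the 12 arrays was highest. By this rule 44 of the 48 were measured, out of 19775 genes on the array. TXNDC5 and SYVN1 had only probe sets that are paired with several symbols, and no probe set was listed under KDELR2 or SEC61G alone, so these 4 are not analysed here. All 44 lay above the median probe set (6.92 on the log2 scale) in the control arrays. Most genes did so by their brightest probe set. Of all 19775, 12694 reached it in the mean of the control arrays or of those with the inhibitor SB590885.

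Expression was measured in INA-6, a human multiple myeloma cell line that needs interleukin-6 to grow and was kept here with 2 ng/ml of it. Cells received the solvent DMSO, the Raf kinase inhibitor SB590885 or the MEK inhibitor PD325901, with 4 Affymetrix arrays in each of the 3 groups. Raf activates MEK, and MEK activates the kinase ERK, so the compounds act at successive steps of 1 cascade. The sources used here give neither dose nor length of exposure, so the 2 compounds are compared as they were used and not at matched doses. All 12 arrays come from 1 cell line, the growth factor was present in every group, and no untreated group without solvent is among them. The DMSO arrays serve as the control for both compounds, so the differences of the compounds from DMSO are not independent of each other and are given side by side.

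Proteins bound for the cell surface or for secretion enter the ER through the SEC61 channel, lose their signal peptide, and fold with the help of chaperones such as HSPA5 (BiP) and of disulfide isomerases. Proteins that fail to fold are drawn back out and degraded. When unfolded protein builds up, the sensors ERN1 (IRE1), EIF2AK3 (PERK) and ATF6 start the unfolded protein response: ERN1 splices the messenger of the transcription factor XBP1, EIF2AK3 slows translation and favours that of ATF4, and ATF6 is cut to release a transcription factor. Plasma cells and myeloma cells carry a heavy load of secreted protein and depend on this machinery.

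The treatments could be seen in genes that respond to ERK. DUSP6, a phosphatase induced by ERK, was at 9.62 ± 0.27 (SD, n = 4) with DMSO, 8.64 ± 0.17 with SB590885 and 6.97 ± 0.25 with PD325901, and ETV5, an ERK-dependent transcription factor, at 8.73 ± 0.12, 7.51 ± 0.07 and 6.91 ± 0.14. Both genes fell with each compound and further with PD325901 (adjusted p from 5.98e-07 to 0.00639, limma). All 9 plasma cell markers lay above the median probe set in each group. With SB590885 the plasma cell markers SDC1 and SLAMF7 fell by 0.55 and by 0.90 on the log2 scale (adjusted p = 0.0398 and 0.0156), and the mean level of the 9 was 11.33 to 11.59 against 11.59 to 12.03 with DMSO and 11.64 to 12.17 with PD325901. All 9 had a lower mean with SB590885 than with PD325901 (median log2 difference -0.24, from -1.01 to -0.07). Over group means 3 of them passed (0.855% of all genes were lower): TNFRSF17, MZB1 and SLAMF7. With the replicate number as a block, 6 passed (5.73% of all genes were lower). Of 8 T and NK cell markers, CD8A and TRAT1 fell with SB590885 and none was called with PD325901, and their mean level was 6.79 to 6.97 with SB590885, 7.0 to 7.15 with DMSO and 7.02 to 7.10 with PD325901. None of 5 monocyte markers lay above the median probe set. Of 9 stromal and epithelial markers only PECAM1 was called over group means, and it was lower with SB590885 than with PD325901 by a log2 difference of -0.94 (adjusted p = 0.00559). Neither of 2 erythroid markers was called in that fit. The difference between 3′ and 5′ probe sets of GAPDH, a sign of RNA breakdown, was 0.371 ± 0.033 with DMSO, 0.44 ± 0.035 with SB590885 and 0.425 ± 0.057 with PD325901 (log2, n = 4). That of ACTB was 1.58 ± 0.17, 1.65 ± 0.17 and 1.64 ± 0.1 in the same order. What part these shifts have in the results was not tested.

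Arrays 3 and 4 of each group carry an R in a second label whose meaning is not given, and they stood apart from arrays 1 and 2. Of the 44 genes, 43 had a higher mean on the 6 arrays without this mark, a count that is not given here for all genes. In 10 of them the unmarked arrays all lay above the marked ones (13.7% of all genes) and in 0 all below (9.39% of all genes). Arrays of the same replicate number deviated from their group means together, most clearly between DMSO and PD325901 (correlations from 0.789 to 0.9133). Between DMSO and SB590885 the correlations were 0.544 to 0.6356, and different numbers among the marked arrays gave 0.5642 and 0.5717. The tests are therefore given both over group means and with the replicate number as a block, which compares arrays of 1 number. The block called far more genes across the whole array, and its calls are stated as such. A call is an adjusted p under 0.05 after Benjamini-Hochberg adjustment over all 19775 genes. In bulk RNA of this kind, fewer cells with a transcript and less of it per cell cannot be told apart.

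With the replicate block, PD325901 was accompanied by higher levels of 21 of the 44 genes, in every role from sensors to vesicle transport. SB590885 was accompanied by higher ERN1 and 5 other higher genes, of the sensors, chaperones and ERAD, and by lower levels of 9 chaperones, isomerases and translocation genes. With PD325901 the median difference from DMSO was 0.19 on the log2 scale, against -0.00 over all genes. Of the 44 genes, 41 lay above their DMSO mean, as did 9584 of all 19775 genes. Without the block 0 of 44 genes passed for PD325901 (0.592% of all genes did). At an unadjusted limma p under 0.05, 14 of the 44 were higher and 0 lower, against 409 and 936 of all 19775 genes. With the block 21 rose, against 1.96% of all genes, and 0 fell, against 6.18%. Of those 21, 14 kept the call when each replicate number was left out in turn. In all 4 same-numbered pairs 35 genes were higher with PD325901 (12.2% of all genes) and 1, ERN1, was lower (18.5%).

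With SB590885 the median difference from DMSO was -0.06 (-0.01 with quantile normalisation), and 17 of 44 genes lay above the DMSO mean (10311 of all 19775 genes did). Without the block 1 gene passed, ERN1, against 3.28% of all genes. With the block 6 rose (9.09% of all genes) and 9 fell (9.84%), of which 5 and 5 kept the call when each replicate number was left out in turn. In all 4 pairs 6 genes were higher (17.1% of all genes) and 15 lower (16.9%). The share of rises lay above that of all genes with the block and below it in the pairs, and the share of falls lay above it in both.

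**Figure D1:**
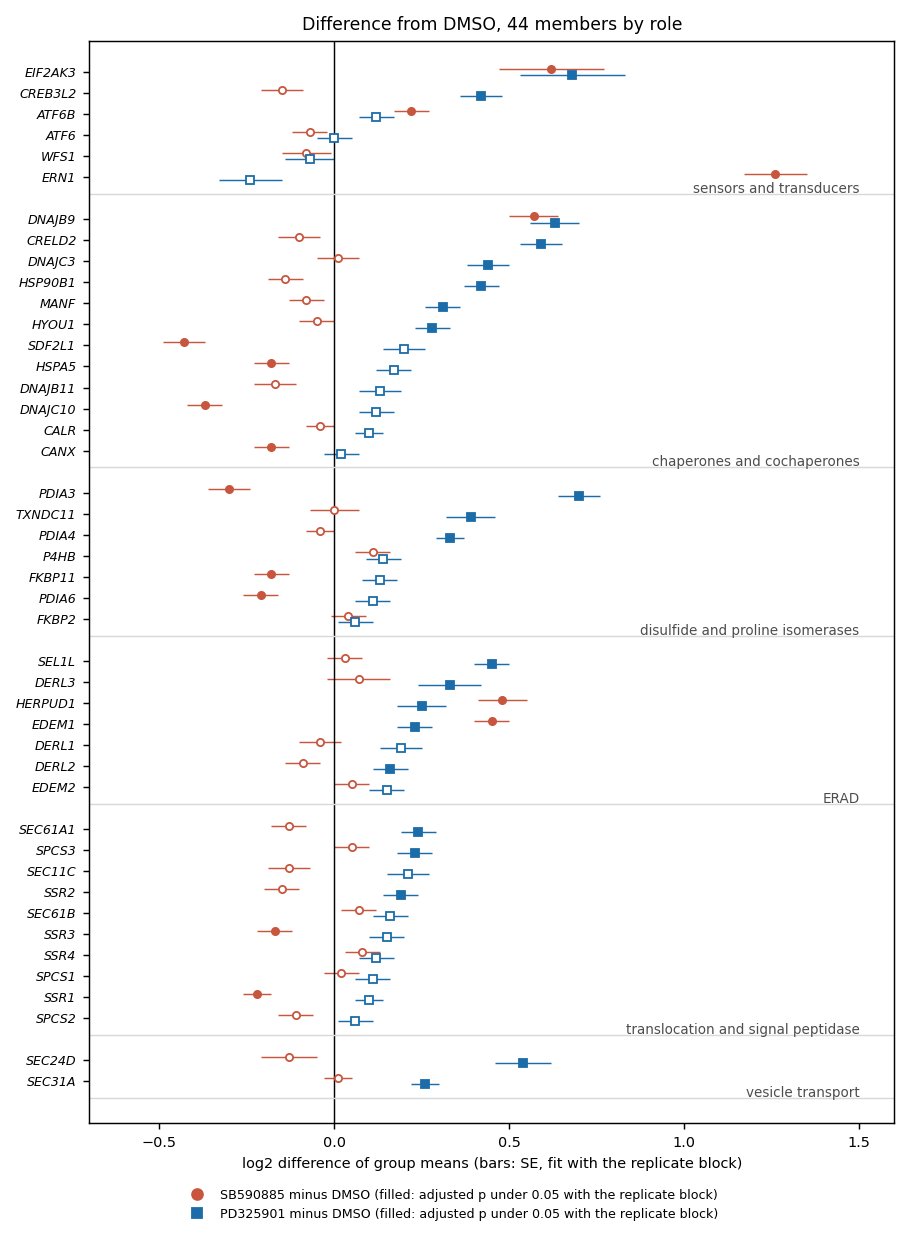
Differences from DMSO on the log2 scale for the 44 measured genes, grouped by role, with SB590885 as circles and PD325901 as squares; bars are standard errors of the fit with the replicate block, and filled symbols passed at an adjusted p under 0.05 in that fit. Most PD325901 squares lie to the right of 0, while the SB590885 circles scatter around it, with ERN1 far to the right at 1.26.

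More of the 44 genes were called between the 2 compounds than between either and DMSO. The median of SB590885 minus PD325901 was -0.29. Without the block 6 genes passed (2.82% of all genes): ERN1 was higher with SB590885, and SDF2L1, PDIA3, MANF, SEL1L and SSR2 were lower. With the block 3 were higher (ERN1, HERPUD1 and EDEM1, against 12.4% of all genes) and 29 lower (5.73%). When each replicate number was left out in turn, 1 of the 3 (ERN1) and 24 of the 29 kept the call; CALR, CANX, DERL1, SPCS2 and SPCS3 did not (adjusted p up to 0.248). In all 4 pairs 2 genes were higher (18.2% of all genes) and 30 lower (11.8%). PD325901 gave the highest mean of the 3 groups in 38 of 44 genes, a count that is not given here for all genes.

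The largest difference between the inhibitors among the 44 genes was that of ERN1, the kinase and nuclease that splices the XBP1 messenger. ERN1 was at 9.16, 9.15, 8.80 and 9.05 on DMSO arrays 1 to 4, at 10.70, 10.63, 9.94 and 9.91 with SB590885, and at 8.85, 9.04, 8.48 and 8.81 with PD325901. Every SB590885 array lay above every other array, and the DMSO and PD325901 values overlapped. The rise over DMSO was 1.26 (SE 0.19), or 2.39-fold (adjusted p = 0.00605, limma), and over PD325901 1.5 (SE 0.19), or 2.83-fold (adjusted p = 0.00151). Neither call was lost when any of the 8 arrays of the groups compared was left out. Without the arrays numbered 2 in all groups, the rise over DMSO was 1.18 with an adjusted p of 0.0552. The other 2 ERN1 probe sets differed from the first: the one with a mean of 9.08 gave 0.66 (SE 0.24) over DMSO, and the one with a mean of 6.99, near the median probe set, gave -0.02 (SE 0.06). PD325901 minus DMSO was -0.24 (SE 0.19, adjusted p = 0.979), although lower in all 4 pairs.

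EIF2AK3, the kinase that phosphorylates a translation initiation factor under ER stress, read differently. Its DMSO arrays were at 10.71, 11.17, 10.44 and 10.32, its SB590885 arrays at 11.86, 12.06, 10.90 and 10.28, and its PD325901 arrays at 11.46, 11.74, 11.19 and 10.99. The groups overlap, and within pairs each compound was higher than DMSO except SB590885 in pair 4. The log2 differences were 0.62 with SB590885 and 0.68 with PD325901 (adjusted p = 0.535 and 0.819 without the block, 0.00821 and 0.0103 with it). The SB590885 difference was 1.02 on the unmarked and 0.21 on the marked arrays. It no longer passed with the block without replicate number 1 (adjusted p = 0.0728), nor did the PD325901 difference without number 3 (adjusted p = 0.0792).

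ATF6, the sensor that is itself a membrane-bound transcription factor, lay between 9.61 and 9.75 with DMSO, 9.58 and 9.64 with SB590885, and 9.61 and 9.85 with PD325901. On the single arrays 1 to 4 it read 9.68, 9.72, 9.75 and 9.61 with DMSO, 9.64, 9.64, 9.58 and 9.61 with SB590885, and 9.85, 9.66, 9.61 and 9.63 with PD325901. Its log2 differences were -0.07 (SE 0.06) with SB590885 and -0.00 (SE 0.06) with PD325901, and neither passed in either fit. The other 3 ATF6 probe sets had the opposite sign with SB590885, at 0.25 (SE 0.08), 0.13 (SE 0.07) and 0.09 (SE 0.10), and none of them passed without the block (adjusted p from 0.197 to 0.9). Its relative ATF6B rose by 0.22 with SB590885 in the fit with the block (adjusted p = 0.0046, and 0.279 without it). CREB3L2, a transcription factor of the same membrane-bound kind, rose by 0.42 with PD325901 with the block (adjusted p = 0.000391), and was lower with SB590885 than with PD325901 (log2 difference -0.57, adjusted p = 1.28e-05 with the block). WFS1, an ER membrane protein, differed from DMSO by -0.08 and -0.07 and passed in no fit.

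**Figure D2:**
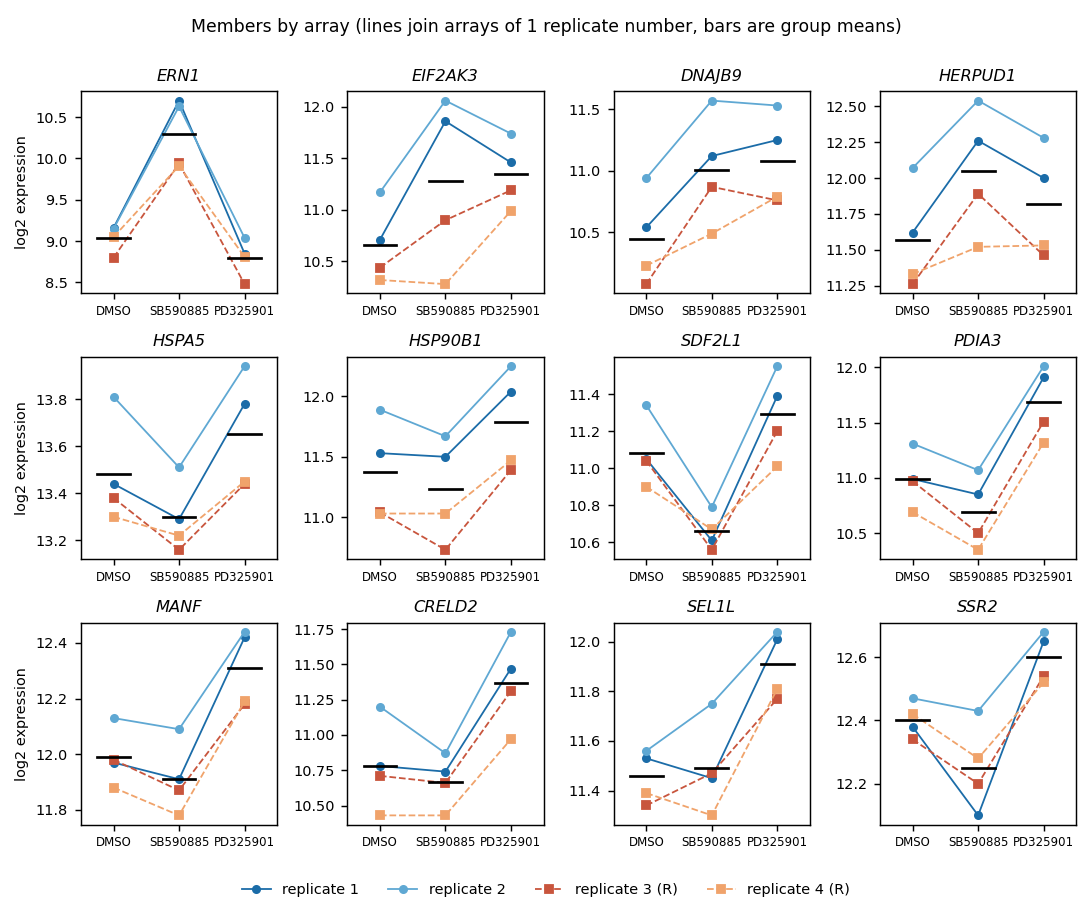
Log2 expression of 12 of the genes on each array; lines join arrays of 1 replicate number, solid for arrays 1 and 2 and dashed for arrays 3 and 4, which carry the R mark, and horizontal bars are group means. ERN1 peaks with SB590885 in every line, whereas PDIA3, SDF2L1 and HSP90B1 peak with PD325901 in every line.

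Nearly all chaperones and cochaperones were lower with SB590885 than with PD325901. With the block, 6 of 12 rose (1.96% of all genes) and 0 fell (6.18%) with PD325901. With SB590885 1 rose (9.09% of all genes) and 4 fell (9.84%). In that fit 11 of 12 were lower with SB590885 than with PD325901 (5.73% of all genes). The exception was DNAJB9 (ERdj4), a cochaperone of HSPA5, which rose with both compounds with the block, by 0.57 with SB590885 (adjusted p = 6.72e-05) and by 0.63 with PD325901 (adjusted p = 4.28e-05).

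Several of these genes share the ER stress element, the promoter sequence that ATF6 and XBP1 are known to use with the CCAAT-binding factor NF-Y. In RefSeq promoters (GRCh38.p14, 250 bases before to 50 after each start, both strands searched), the element, written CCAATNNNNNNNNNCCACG, was found in 6 of the 42 genes of the 48 that have a promoter in the table (14.3%), against 0.0916% of all 27305 genes there. These were HSPA5, HSP90B1, CALR, CANX, CRELD2 and PDIA6. Its second form, ATTGGNCCACG, was found in HYOU1, SDF2L1 and HERPUD1 (7.14% against 0.0696%). The XBP1 and ATF6 site TGACGTGG was found in DNAJC10, SSR3, SSR4, TXNDC5, TXNDC11 and HYOU1 (14.3% against 0.927%), and in HYOU1 it overlaps 1 copy of the second form. A match of letters is a description and does not show binding. The 48 genes were listed for their part in ER folding and the stress response, so the higher shares are not an independent result. The promoters below are shown because these 5 genes carry the element and differed between the compounds; capitals mark the matches to the 3 motifs, and each reads 5′ to 3′ on the gene's strand. HSPA5 lies at chr9:125241294-125241593 (minus strand), HSP90B1 at chr12:103930160-103930459 (plus), HYOU1 at chr11:119057156-119057455 (minus), SDF2L1 at chr22:21642052-21642351 (plus) and HERPUD1 at chr16:56931892-56932191 (plus).
HSPA5: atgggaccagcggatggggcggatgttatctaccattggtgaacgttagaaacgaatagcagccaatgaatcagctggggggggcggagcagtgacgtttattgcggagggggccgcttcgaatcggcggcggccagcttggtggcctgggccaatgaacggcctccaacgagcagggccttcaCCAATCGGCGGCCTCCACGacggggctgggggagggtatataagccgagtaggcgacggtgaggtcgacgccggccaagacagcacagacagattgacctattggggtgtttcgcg
HSP90B1: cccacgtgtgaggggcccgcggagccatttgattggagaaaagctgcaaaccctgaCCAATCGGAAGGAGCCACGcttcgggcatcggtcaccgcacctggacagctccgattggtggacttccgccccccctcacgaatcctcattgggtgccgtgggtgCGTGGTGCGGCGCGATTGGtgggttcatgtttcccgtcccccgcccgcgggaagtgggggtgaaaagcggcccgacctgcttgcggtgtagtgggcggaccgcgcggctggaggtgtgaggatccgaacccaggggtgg
HYOU1: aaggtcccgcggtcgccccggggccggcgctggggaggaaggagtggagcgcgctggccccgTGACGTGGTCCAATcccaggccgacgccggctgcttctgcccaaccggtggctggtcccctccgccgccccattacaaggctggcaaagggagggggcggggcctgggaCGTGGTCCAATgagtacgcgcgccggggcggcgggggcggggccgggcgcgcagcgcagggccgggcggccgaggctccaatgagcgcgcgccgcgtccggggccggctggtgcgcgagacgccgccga
SDF2L1: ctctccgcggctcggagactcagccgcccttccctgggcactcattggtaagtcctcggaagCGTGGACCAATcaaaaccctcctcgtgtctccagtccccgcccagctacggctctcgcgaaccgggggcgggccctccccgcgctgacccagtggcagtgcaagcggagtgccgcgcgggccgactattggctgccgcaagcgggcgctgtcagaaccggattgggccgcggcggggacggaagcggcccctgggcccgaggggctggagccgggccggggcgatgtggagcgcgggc
HERPUD1: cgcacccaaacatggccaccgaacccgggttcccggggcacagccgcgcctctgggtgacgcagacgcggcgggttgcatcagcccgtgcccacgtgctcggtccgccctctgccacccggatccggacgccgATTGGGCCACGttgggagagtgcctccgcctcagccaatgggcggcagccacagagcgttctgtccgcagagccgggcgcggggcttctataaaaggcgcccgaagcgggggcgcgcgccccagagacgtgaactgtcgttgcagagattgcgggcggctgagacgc

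The HSPA5 promoter holds 1 match, which begins 66 bases before the start, and that of HSP90B1 holds 2, beginning 194 and 89 bases before it on opposite strands. HYOU1 has 2 copies of the second form, at 185 and 79 bases, SDF2L1 has 1 at 188 and HERPUD1 has 1 at 117. Of the 9 genes with either form of the element, all measured, 8 were lower with SB590885 than with PD325901 with the block and 1, HERPUD1, was higher. Of the 30 measured genes whose promoter held neither form, 18 were lower and 2 higher, against 5.73% and 12.4% of all genes. Against DMSO, 4 of the 9 rose (1.96% of all genes) and 0 fell (6.18%) with PD325901. With SB590885 1 of the 9 rose (9.09% of all genes) and 4 fell (9.84%). Of the 30, 14 rose and 0 fell with PD325901, and 5 rose and 4 fell with SB590885. A link between the element and these differences was not tested.

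HSPA5, the main ER chaperone of the Hsp70 family, was among the brightest probe sets, at 13.44, 13.81, 13.38 and 13.30 with DMSO, 13.29, 13.51, 13.16 and 13.22 with SB590885, and 13.78, 13.94, 13.44 and 13.45 with PD325901. The order SB590885, DMSO, PD325901 held within each of the 4 numbers, although the groups overlap. HSPA5 fell by 0.18 with SB590885 with the block (adjusted p = 0.0258, and 0.71 without it). PD325901 minus DMSO was 0.17 (adjusted p = 0.0715 with the block), and SB590885 minus PD325901 was -0.35 (adjusted p = 0.000328 with the block, and 0.259 without it). The fall with SB590885 did not pass without replicate number 2 (adjusted p = 0.169) or 3 (adjusted p = 0.0846). The second, dimmer HSPA5 probe set (mean 8.43) gave 0.19 with SB590885, the opposite sign, and 0.12 with PD325901. With both probe sets averaged, SB590885 minus DMSO was 0.00 (adjusted p = 0.973 with the block).

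HSP90B1 (GRP94), the Hsp90 of the ER, was at 11.53, 11.89, 11.04 and 11.03 with DMSO, 11.50, 11.67, 10.73 and 11.03 with SB590885, and 12.04, 12.25, 11.39 and 11.47 with PD325901. Arrays 1 and 2 lay above arrays 3 and 4 in each group, and PD325901 was the highest within each number. The rise with PD325901 was 0.42 (adjusted p = 0.000174 with the block, and 0.941 without it), and SB590885 minus PD325901 was -0.56 (adjusted p = 6.68e-06 with the block).

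SDF2L1, a partner of HSPA5 and its cochaperones, was at 11.05, 11.34, 11.04 and 10.90 with DMSO, 10.61, 10.79, 10.56 and 10.67 with SB590885, and 11.39, 11.55, 11.20 and 11.01 with PD325901. All SB590885 arrays lay below all other arrays. SB590885 minus PD325901 was -0.63 (SE 0.12), or 0.65-fold (adjusted p = 0.014, limma), and this call held in all 20 alternative settings run. SB590885 minus DMSO was -0.43 (SE 0.12, adjusted p = 0.0752, and 0.000278 with the block), and PD325901 minus DMSO was 0.20 (adjusted p = 0.0625 with the block).

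MANF, a secreted ER protein that rises under ER stress in many cells, was at 11.97, 12.13, 11.98 and 11.88 with DMSO, 11.91, 12.09, 11.87 and 11.78 with SB590885, and 12.42, 12.44, 12.18 and 12.19 with PD325901. All PD325901 arrays lay above all others. SB590885 minus PD325901 was -0.39 (SE 0.08, adjusted p = 0.0293), and PD325901 minus DMSO was 0.31 (adjusted p = 0.209, and 0.000739 with the block). The first call was lost when SB590885 array 1, 3 or 4 or PD325901 array 1 or 2 was left out (adjusted p up to 0.0819).

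CRELD2, an ER protein induced by ER stress, rose by 0.59 with PD325901 (adjusted p = 1.39e-05 with the block) and differed by -0.70 between the compounds (adjusted p = 1.82e-06 with the block). DNAJC3, a cochaperone of HSPA5, rose by 0.44 with PD325901 (adjusted p = 0.000152 with the block) and was at 0.01 with SB590885. DNAJC10, a disulfide reductase with a J domain, fell by 0.37 with SB590885 (adjusted p = 0.000146 with the block), and differed by -0.48 between the compounds (adjusted p = 1.29e-05 with the block). HYOU1, a large Hsp70 relative, rose by 0.28 with PD325901, and CANX, the lectin chaperone calnexin, fell by 0.18 with SB590885, both with the block. The CANX fall did not pass without replicate number 2 (adjusted p = 0.119) or 4 (adjusted p = 0.0639). Of the other 4 CANX probe sets, the one with a mean of 10.73 fell by 0.43 without the block (adjusted p = 0.0222 over all probe sets), and the rest gave -0.28, -0.04 and 0.05. DNAJB11, a cochaperone of HSPA5, and CALR, calreticulin, passed with the block only between the compounds (-0.31 and -0.14).

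With the block, 3 of the 7 measured isomerases rose with PD325901 (1.96% of all genes) and 3 fell with SB590885 (9.84%). In that fit 5 were lower with SB590885 than with PD325901 (5.73% of all genes). The largest difference was that of PDIA3 (ERp57), which forms disulfides in glycoproteins held by calnexin and calreticulin. PDIA3 was at 10.99, 11.31, 10.97 and 10.69 with DMSO, 10.85, 11.07, 10.50 and 10.35 with SB590885, and 11.91, 12.01, 11.51 and 11.32 with PD325901. All PD325901 arrays lay above all others. SB590885 minus PD325901 was -1.0 (SE 0.19), a level 0.50-fold that with PD325901 (adjusted p = 0.0168, limma). Leaving out any 1 array of these groups kept the call (adjusted p up to 0.0469), and a fit of these 2 groups alone gave an adjusted p of 0.057. The difference had the same sign in the other 2 PDIA3 probe sets, at -0.53 (SE 0.10) and -0.30 (SE 0.05). PDIA3 rose by 0.70 with PD325901 (adjusted p = 3.2e-06 with the block, 0.216 without) and fell by 0.30 with SB590885 (adjusted p = 0.00168 with the block, 0.617 without).

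PDIA4, another disulfide isomerase, rose by 0.33 with PD325901 (adjusted p = 0.00021 with the block) and was lower with SB590885 than with PD325901 by a log2 difference of -0.37 (adjusted p = 3.06e-05 with the block). TXNDC11, a thioredoxin-domain protein of the ER, rose by 0.39 with PD325901 with the block. PDIA6 and FKBP11, a proline isomerase, fell by 0.21 and by 0.18 with SB590885 with the block. The FKBP11 fall did not pass without replicate number 2 (adjusted p = 0.125) or 3 (adjusted p = 0.0791). P4HB, the founding disulfide isomerase, and FKBP2 differed by 0.04 to 0.14 from DMSO and by -0.03 and -0.02 between the compounds, and passed in neither fit.

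Of the ERAD genes, HERPUD1 and EDEM1 rose with SB590885 with the block. In that fit, 2 of 7 rose (9.09% of all genes) and 0 fell (9.84%) with SB590885. With PD325901 5 rose (1.96% of all genes) and 0 fell (6.18%). HERPUD1, an ER membrane protein that organises the degradation complex, was at 11.62, 12.07, 11.26 and 11.33 with DMSO, 12.26, 12.54, 11.89 and 11.52 with SB590885, and 12, 12.28, 11.46 and 11.53 with PD325901. The groups overlap, and both compounds were higher than DMSO in all 4 pairs. HERPUD1 rose with the block by 0.48 with SB590885 (adjusted p = 0.000193, and 0.467 without it) and by 0.25 with PD325901 (adjusted p = 0.0352, and 0.985 without it). The PD325901 rise did not pass with the block without replicate number 1, 2 or 3 (adjusted p from 0.0675 to 0.145). SB590885 minus PD325901 was 0.23 (adjusted p = 0.0256 with the block) and lost its call without number 1, 2 or 3 (adjusted p from 0.0787 to 0.184).

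EDEM1, which trims mannose from misfolded glycoproteins, rose with the block by 0.45 with SB590885 (adjusted p = 6.69e-05) and by 0.23 with PD325901 (adjusted p = 0.0174). The latter did not pass without replicate number 1, 2 or 3 (adjusted p from 0.0548 to 0.0814). SEL1L, the adaptor of the HRD1 ubiquitin ligase, was at 11.53, 11.56, 11.34 and 11.39 with DMSO, 11.45, 11.75, 11.47 and 11.30 with SB590885, and 12.01, 12.04, 11.77 and 11.81 with PD325901. All PD325901 arrays lay above all others, while SB590885 overlapped DMSO. SB590885 minus PD325901 was -0.42 (SE 0.10, adjusted p = 0.0429), and PD325901 minus DMSO was 0.45 (adjusted p = 0.0814, and 0.000116 with the block). The first call was lost without SB590885 array 1, 3 or 4 or PD325901 array 1, 2 or 4 (adjusted p up to 0.123). The other 3 SEL1L probe sets, which are dimmer, gave larger differences between the compounds, at -0.61 (SE 0.13), -0.99 (SE 0.09) and -0.61 (SE 0.10), and each passed without the block when adjusted over all probe sets (adjusted p from 0.000397 to 0.0396). They did not share 1 difference from DMSO with SB590885: the probe set with a mean of 8.90 fell by 0.44 (adjusted p = 0.03), and the other 2 gave 0.01 and -0.13.

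The derlins are membrane proteins that form the exit channel of ERAD. DERL2 and DERL3 rose by 0.16 and by 0.33 with PD325901 with the block (adjusted p = 0.0481 and 0.0328), and both calls were lost when some replicate numbers were left out: 1, 2, 3 or 4 for DERL2 (adjusted p from 0.0518 to 0.205), and 1 or 4 for DERL3 (adjusted p = 0.119 and 0.155). DERL1 was at 0.19 (adjusted p = 0.0776 with the block) and EDEM2 at 0.15 (adjusted p = 0.0971 with the block). DERL1 and DERL2 were lower with SB590885 than with PD325901 with the block, by log2 differences of -0.23 and -0.26.

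The translocation and signal peptidase genes gave small differences. With the block, 3 of the 10 measured rose with PD325901 (1.96% of all genes) and 2 fell with SB590885 (9.84%). In that fit 7 were lower with SB590885 than with PD325901 (5.73% of all genes). The differences of the 10 from DMSO ran from -0.22 to 0.08 with SB590885 and from 0.06 to 0.24 with PD325901. SSR2, a subunit of the translocon-associated complex, was the member of this role that passed without the block. It was at 12.38, 12.47, 12.34 and 12.42 with DMSO, 12.10, 12.43, 12.20 and 12.28 with SB590885, and 12.65, 12.68, 12.54 and 12.52 with PD325901. All PD325901 arrays lay above all others, and SB590885 minus PD325901 was -0.35 (SE 0.07, adjusted p = 0.0206). This call was lost without SB590885 array 1 or 3 or PD325901 array 1 or 2 (adjusted p up to 0.0591).

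SSR1 and SSR3, of the same complex, fell by 0.22 and by 0.17 with SB590885 with the block (adjusted p = 0.00285 and 0.0264), whereas SSR4 was at 0.08 with no call. The SSR3 fall did not pass without replicate number 2, 3 or 4 (adjusted p from 0.0937 to 0.14). SEC61A1, the pore subunit of the channel, and SPCS3, of the signal peptidase, rose by 0.24 and by 0.23 with PD325901 with the block. The SEC61A1 rise did not pass without number 4 (adjusted p = 0.0849). The third was SSR2, at 0.19, which did not pass without any 1 number (adjusted p from 0.0729 to 0.146). SEC61B, SPCS1, SPCS2 and SEC11C, the other channel and signal peptidase subunits, passed against DMSO in neither fit. Both measured vesicle genes, subunits of the COPII coat that buds from the ER, rose with PD325901 with the block, SEC24D by 0.54 and SEC31A by 0.26. SEC24D also differed by -0.67 between the compounds (adjusted p = 3.25e-05 with the block).

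The difference between the compounds was present in both sets of arrays. On the unmarked arrays the median of SB590885 minus PD325901 was -0.35 over the 44 genes and on the marked arrays -0.24, where the medians of all genes were -0.00 and 0.02. In both sets 35 genes were lower with SB590885 (79.5%, against 28.3% of all genes) and 4 higher (9.09% against 32.3%), and 5 differed in sign (11.4% against 39.4%). PD325901 minus DMSO had medians of 0.24 and 0.14, and 39 genes were higher in both sets (88.6%, against 28.7% of all genes). SB590885 minus DMSO had medians of -0.06 and -0.07. PDIA3 differed by -1.0 and -0.99 between the compounds in the 2 sets, and ERN1 by 1.72 and 1.28. EIF2AK3 was among those that changed sign, at 0.36 and -0.50.

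**Figure D3:**
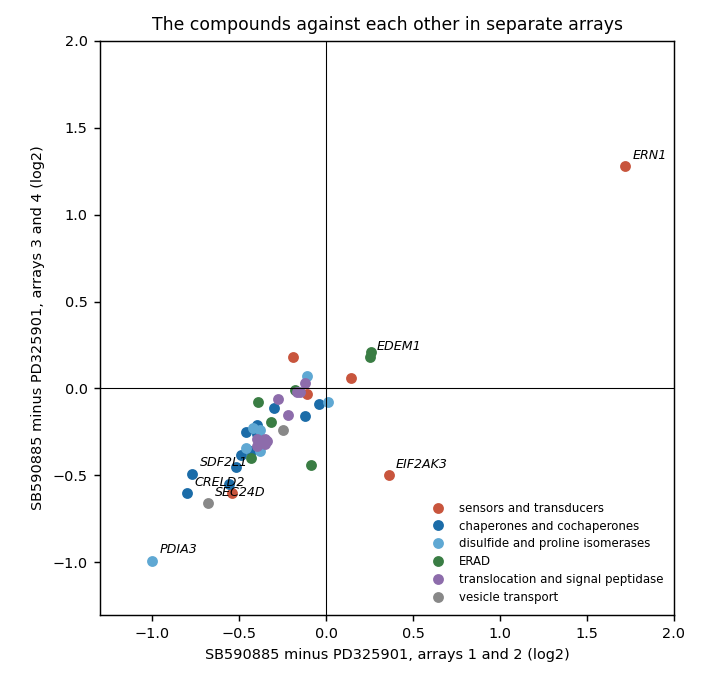
SB590885 minus PD325901 on the log2 scale for the 44 genes, on arrays 1 and 2 (horizontal) and on arrays 3 and 4, which carry the R mark (vertical), coloured by role. Most genes fall at the lower left, with PDIA3 farthest, and ERN1 stands alone at the upper right.

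Beyond these genes, 109 of 112 other genes of the secretory pathway and the stress response were measured. Without the block 2 rose and 2 fell with SB590885 (1.59% and 1.69% of all genes). With PD325901 0 were called (0.086% of all genes were higher and 0.506% lower). At an unadjusted limma p under 0.05, 17 were higher and 2 lower with PD325901, against 409 and 936 of all 19775 genes. Between the compounds 2 were higher and 4 lower with SB590885 than with PD325901 (1.97% and 0.855% of all genes). With the block the counts were 11 higher and 19 lower with SB590885, 21 and 5 with PD325901, and 10 and 37 between the compounds. The background in that fit was 9.09% and 9.84% of all genes, 1.96% and 6.18%, and 12.4% and 5.73%, in the same order. The median differences of the 109 were -0.03, 0.08 and -0.09, nearer to 0 than those of the 44 (-0.06, 0.19 and -0.29). The first of them turned to 0.03 with quantile normalisation.

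The transcription factors of the response moved in opposite ways with SB590885. XBP1, the factor made active by ERN1, was at 13.08, 12.81, 12.51 and 12.81 with DMSO, 12.16, 12.38, 12.26 and 11.92 with SB590885, and 13.03, 13.19, 12.68 and 12.94 with PD325901. All SB590885 arrays lay below all others, and the array does not report splicing of this messenger. XBP1 fell by 0.62 with SB590885 (adjusted p = 0.0317) and was lower than with PD325901 by a log2 difference of -0.78 (adjusted p = 0.0113). The former was -0.26 when its probe sets were averaged (adjusted p = 0.0831), and it was lost without DMSO array 1, 2 or 4 or SB590885 array 1, 3 or 4 (adjusted p up to 0.0985).

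DDIT3 (CHOP), a factor downstream of ATF4, was at 8.09, 8.41, 7.99 and 8.07 with DMSO, 9.54, 9.55, 9.02 and 8.48 with SB590885, and 8.22, 8.55, 8.26 and 8.04 with PD325901. SB590885 arrays 1 to 3 lay above all others and array 4 among them. DDIT3 rose by 1.01 with SB590885 (adjusted p = 0.0244, and 5.29e-05 with the block), and the call was lost without DMSO array 1, 3 or 4 or SB590885 array 1 or 2 (adjusted p up to 0.079). It was higher than with PD325901 by 0.88 (adjusted p = 0.0487), which was lost without any 1 of 7 of the 8 arrays, all but SB590885 array 4 (adjusted p up to 0.148). ATF4 was at 12.89, 13.01, 12.84 and 12.73 with DMSO, 13.32, 13.36, 13.12 and 13.06 with SB590885, and 12.73, 12.98, 12.55 and 12.49 with PD325901. It was higher with SB590885 than with PD325901 by 0.53 (adjusted p = 0.024), which was lost without SB590885 array 1 or 2 or PD325901 array 3 or 4 (adjusted p up to 0.083), and SB590885 minus DMSO was 0.35 (adjusted p = 0.127, and 0.000215 with the block). PPP1R15A (GADD34), which restores translation, rose by 0.58 with SB590885 (adjusted p = 0.0435), a call lost without any 1 of 7 of the 8 arrays, all but SB590885 array 4 (adjusted p up to 0.132).

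**Figure D4:**
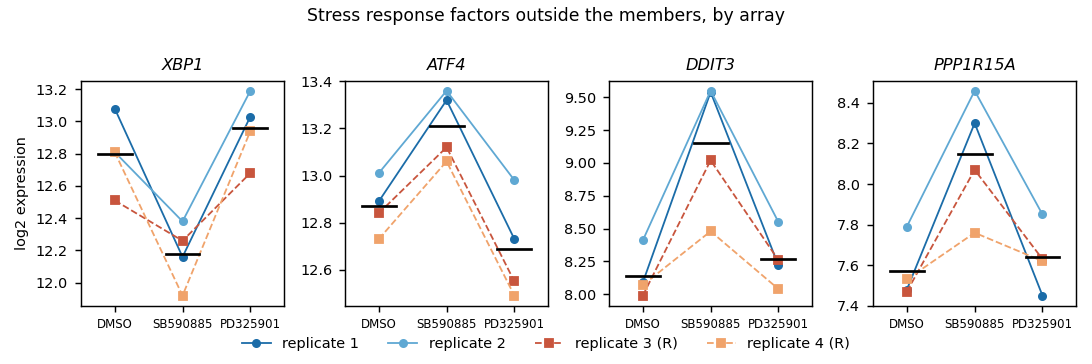
Log2 expression of the stress response genes XBP1, ATF4, DDIT3 and PPP1R15A, which are not among the 44, on each array; lines join arrays of 1 replicate number and bars are group means. XBP1 is lowest with SB590885 in every line, and the other 3 are highest with it.

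The other calls were in glycan transfer and folding. STT3A, the catalytic subunit that attaches N-glycans, fell by 0.38 with SB590885 (adjusted p = 0.0264) and differed by -0.48 between the compounds (adjusted p = 0.00972). The former was lost without any 1 of 7 of the 8 arrays, all but DMSO array 3 (adjusted p up to 0.0756), and the latter was kept without each of them. UGGT1, which marks unfolded glycoproteins for another round of folding, and MYDGF, a secreted protein found in the ER, were lower with SB590885 than with PD325901 by log2 differences of -0.35 (adjusted p = 0.0105) and -0.32 (adjusted p = 0.024). The UGGT1 call was lost with its probe sets averaged (-0.22, adjusted p = 0.103, limma). An intensity trend ended it too (adjusted p = 0.0564), as did leaving out replicate 2 of all groups (adjusted p = 0.0701). The MYDGF call was lost without SB590885 array 1 or 3 or PD325901 array 1 or 2 (adjusted p up to 0.0777).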

How the data were processed

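Each of the 12 samples was amplified from 100 ng of total RNA and measured on 1 Affymetrix HG-U133 Plus 2.0 array, per the labels' protocols. The values deposited by the authors are log2 expression values per probe set, made with RMA in R 3.0.1 per the submitters' processing notes; RMA corrects background, normalises between arrays and summarises the probes of a set, and scanner intensities were not used here. The medians and SDs of the deposited columns differed slightly between arrays (SD 1.52 to 1.55 on unmarked and 1.38 to 1.45 on marked arrays). Of 54675 probe sets, 62 controls were left out, and 41091 had 1 symbol in the platform annotation, 1801 several and 11721 none.

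Group means over all 12 arrays were fitted with limma 3.58.1 in R 4.3.3 (lmFit and eBayes), with Benjamini-Hochberg adjustment over 19775 genes. The script was tested on simulated data. The design text calls the arrays biological replicates; nothing says how cultures were made, so p-values measure the spread between these arrays. No value was shared by any pair of arrays at the same probe set. The deviations from group means correlated at 0.544 to 0.9133 between arrays of 1 number (12 pairs), at 0.1229 to 0.646 between the other arrays of the same mark (12 pairs) and at -0.7184 to -0.4433 across marks (24 pairs), so the pairing comes from the data and is partly that of the mark.

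All arrays are given for members called without the block, for XBP1, ATF4 and DDIT3, and for ERN1, EIF2AK3, ATF6, HSPA5, HSP90B1 and HERPUD1. Of members called with the block, the plan was to name up to 8 per contrast with their adjusted p. The text goes beyond this, and the further members and adjusted p were chosen after their values were seen. The members and lists were chosen with earlier results of these data known. Alternatives covered scaling, probe set choice, filters, the trend in the variance, the groups fitted, the R mark and each array left out. A planned look at the last residues of the proteins was not run.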

Additional observations from a re-analysis of the deposited data

Results flagged for a closer look

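Each group of 4 arrays was screened for 1 array far from the other 3 by the gap to the nearest array over the range of the group. Of 132 groups of the 44 genes, 6 were picked out, and chance alone picks about 1 in 20. DMSO array 2 was high for HYOU1 (10.01, others 9.68 to 9.72), CALR (10.68, others 10.40 to 10.44) and SEC61B (13.26, others 13.09 to 13.11). SB590885 array 2 was high for SEC61A1 (11.03, others 10.61 to 10.62) and SPCS3 (12.64, others 12.46 to 12.48). SB590885 array 3 was low for FKBP11 (12.73, others 12.96 to 12.99).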

How the results depend on the processing

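The number of arrays limits the precision here. For SB590885 against DMSO, 1 gene passed over group means, 15 with the replicate block, 13 with a term for the R mark, 5 on unmarked and 7 on marked arrays, 7 with quantile normalisation, 2 with these groups alone and 0 without replicate 2 of all groups (5 genes higher and 4 lower at an unadjusted limma p under 0.05); over all genes these shares were 3.28%, 18.9%, 16.8%, 13.3%, 5.39%, 8.26%, 3.33% and 0.394% in the same order. For PD325901 against DMSO, 0 passed over group means (14 higher and 0 lower at an unadjusted limma p under 0.05), 21 with the block, 15 with the mark as a term, 2 on unmarked and 10 on marked arrays, 12 with quantile normalisation and 1 with probe sets averaged; over all genes, 0.592%, 8.14%, 6.52%, 0.941%, 5.46%, 1.76% and 0.612%. For SB590885 against PD325901, 6 passed over group means, 32 with the block, 30 with the mark as a term, 23 on unmarked and 18 on marked arrays, 3 with median centring, 23 with quantile normalisation, 3 with an intensity trend, 2 with these groups alone, and 3 to 7 with single arrays left out; over all genes, up to the single arrays, 2.82%, 18.1%, 16.1%, 11.9%, 8.95%, 1.55%, 7.86%, 2.04% and 1.14%. At an unadjusted limma p under 0.05 over group means, 409 of all 19775 genes were higher and 936 lower with PD325901 than with DMSO. The unadjusted count over all genes is not given here for the fit without replicate 2. Quantile normalisation with the block raised the PD325901 count from 21 to 38, all higher, and left SB590885 with 8 higher and 7 lower in place of 6 and 9. Over all genes the split of higher and lower calls moved from 17 and 100 to 173 and 176 with quantile normalisation for PD325901 (387 and 1223 to 802 and 695 with the block), from 315 and 334 to 143 and 239 with centring for SB590885, and from 389 and 169 to 877 and 678 with quantile normalisation between the compounds (2449 and 1133 to 2048 and 1725 with the block). Of the calls made over group means and named in the text, 0 turned their sign in the alternatives run. Of the calls with the block, 1 of 15 for SB590885 (HSPA5, 0.00 with probe sets averaged), 0 of 21 and 0 of 32 did so. Averaging the probe sets also ended, with the block, the SB590885 calls of ATF6B (adjusted p = 0.12) and PDIA3 (adjusted p = 0.053), the PD325901 calls of EIF2AK3 (adjusted p = 0.0507) and HERPUD1 (adjusted p = 0.192), and that of SPCS2 between the compounds (adjusted p = 0.151). The cause of these shifts was not tested. Among genes called with the block, other probe sets of the gene had the same sign in 28 of 32 for SB590885, 22 of 25 for PD325901 and 47 of 52 between the compounds.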
